A study of Mus musculus with 6 samples.

Results

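Oxidative phosphorylation subunits are the proteins of the 4 respiratory chain complexes and of the ATP synthase in the inner mitochondrial membrane. They were taken by gene symbol, as the nuclear genes of the Nduf (a, b, c, s and v), Sdh, Uqcr, Cyc1, Cox (4 to 8) and Atp5 series, and where a gene had several probe sets the brightest, by its mean over the 6 arrays, stood for it. The rule found 82 of the 19938 genes with a probe set of their own on the array. Of these, 77 lay above the floor for dim probe sets, a mean of 5.81 on the log2 scale, and were tested among 12071 genes. Cox6b2, Cox7b2, Cox8b, Cox8c and Ndufa4l2 lay below it. By complex, 33 members tested belonged to complex I, 4 to complex II, 9 to complex III, 13 to complex IV and 17 to complex V. Cox7a2l, which matches the rule by name and is known as a factor that links complexes III and IV, was counted among the members but in no complex.

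The study measured RNA of epithelial cells sorted from the colon as EpCAM-positive and CD45-negative. All mice were wild-type BALB/c males, 6 weeks old, that went without food for 36 h before 24 h of re-feeding. The re-fed group (n = 3 arrays) had no further treatment, and the antibiotics group (n = 3 arrays) received antibiotics, which the labels do not name, while food was given back. The comparison asks how the re-fed epithelium differs when antibiotics are present, and no fasted or never-fasted mice are among these 6 arrays. The labels call the samples biological replicates without giving the number of mice behind each, so p-values measure only the spread between these samples.

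Complex I (NADH dehydrogenase) and complex II (succinate dehydrogenase) pass electrons from NADH and succinate to ubiquinone. Complex III (cytochrome bc1) hands them to cytochrome c, and complex IV (cytochrome c oxidase) hands them to oxygen. Complexes I, III and IV pump protons, and complex V (ATP synthase) makes ATP as the protons flow back. Colonocytes are known to burn butyrate, a product of bacterial fermentation, through this chain. Nearly all subunits are encoded in the nucleus, and a small core of them in mitochondrial DNA. The 13 mitochondrially encoded subunits lie outside the rule and were not described as a set. COX2 and ND3, which belong to them, were among the genes tested. Their log2 differences, antibiotics minus re-fed, were 0.01 and -0.05. A level in sorted cells in bulk cannot tell fewer cells of a type apart from less RNA per cell.

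Nuclear subunit genes have long been studied as a set whose promoters carry sites for nuclear respiratory factor 1 (NRF1), for ETS-family factors such as GABP, for YY1 and for oestrogen-related receptors (ERR). Promoter windows of 300 bases, 250 before and 50 after the start, were found for 66 members in RefSeq (GRCm38.p6). Each window was searched on both strands. The NRF1 motif GCGCANGCG was present in 19 of the 66 (28.8%) and in 7.03% of 27025 genes. The 27025 are all genes with a window, tested here or not, and were not matched to the members in level. The YY1 motif AAGATGGC was present in 10 (15.2%), against 3.19% of these 27025 genes. The ETS motif CCGGAAGT was present in 5 (7.58%, against 4.31%) and the ERR motif TCAAGGTCA in 2 (3.03%, against 0.466%). A match describes the letters only. The 150 bases before the start are given here for the 4 members with such a window whose groups did not overlap and whose unadjusted p was under 0.05 in limma's fit. Letters run 5′ to 3′ on the strand of the gene in lower case, and capitals mark NRF1 motifs.
Ndufs5 (chr4:123718187-123718336, minus strand): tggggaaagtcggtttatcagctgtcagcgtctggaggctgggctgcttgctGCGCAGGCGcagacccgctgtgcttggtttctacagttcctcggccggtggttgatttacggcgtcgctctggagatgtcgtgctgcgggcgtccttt
Atp5g2 (chr15:102671048-102671197, minus strand): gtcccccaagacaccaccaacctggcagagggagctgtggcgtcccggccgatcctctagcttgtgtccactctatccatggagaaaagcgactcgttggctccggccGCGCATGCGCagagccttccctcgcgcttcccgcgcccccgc
Ndufa6 (chr15:82354292-82354441, minus strand): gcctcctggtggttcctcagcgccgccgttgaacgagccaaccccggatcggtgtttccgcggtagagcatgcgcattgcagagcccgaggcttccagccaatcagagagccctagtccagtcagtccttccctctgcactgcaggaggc
Ndufa12 (chr10:94198885-94199034, plus strand): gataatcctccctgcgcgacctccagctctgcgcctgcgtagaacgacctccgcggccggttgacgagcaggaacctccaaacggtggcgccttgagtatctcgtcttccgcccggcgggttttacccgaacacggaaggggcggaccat
Ndufs5 and Atp5g2 both carry the NRF1 motif before the start, and in Atp5g2 matches on the opposite strands overlap in a palindrome. Ndufa6 has the motif after the start, outside the stretch shown. Ndufa12 has none of the 4 motifs in its window. Ndufs5 was lower and Atp5g2 was higher on the antibiotics arrays, so members with the motif lay on both sides. Among the members tested, the median difference was 0.02 for the 19 with an NRF1 motif, of which 11 were higher and 8 lower, and -0.01 for the 44 without.

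The markers of the sort were as labelled. Epcam, which encodes the sorting antigen, had a mean log2 level of 12.14, while Ptprc, which encodes CD45, was below the floor at 5.42. Of 10 leukocyte markers 8 lay below the floor, and of 11 markers of stroma, endothelium and muscle 4 did. The deposited arrays do not share a single scale: their medians over 35557 probe sets ranged from 5.63 (antibiotics replicate 3) to 6.17 (antibiotics replicate 1), and the exact values that arrays share place all but re-fed replicate 1 and antibiotics replicate 3 in a common normalisation run of 4 arrays. This was inferred from the values: antibiotics replicate 3 holds 10829 distinct values, against at least 34568 on the other arrays, and so has fewer to share. Values given here are log2 levels after quantile normalisation of all 6 arrays, and a difference is the antibiotics mean minus the re-fed mean. For the genes whose difference is given, other than COX2 and ND3, the difference within the common run is added where it departs by more than 0.05. It had the other sign in 15 of the 77 members, and in 0 of the 21 members whose difference over 6 arrays exceeded its SE.

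No subunit of any complex differed between the groups past the threshold. In limma's fit with Benjamini-Hochberg adjustment over all genes, 0 of the 77 members had an adjusted p under 0.05, where 7 of 12071 genes did (0.058%). At an unadjusted p under 0.05 there were 6 members (7.79%), against 12.6% of all genes. Higher on the antibiotics arrays were 38 members and lower were 39, with a median difference of -8.5e-05. Over all genes tested 6124 were higher and 5947 lower, with a median of 3.3e-03. The groups did not overlap in 8 members (10.4%), against 19.6% of all genes. Of these, 3 were higher (Ndufa12, Ndufa6 and Atp5g2), against 8.88% of all genes, and 5 were lower (Ndufs5, Ndufs1, Ndufs4, Uqcrb and Atp5md), against 10.7%. These shares lay below the background. Within the common run 0 members and 0.447% of genes passed, and the smallest adjusted p of a member was 0.134 (Ndufs5, limma).

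The members' differences were small as well as balanced. The median size of a difference, whatever its sign, was 0.07 among the members and 0.12 over all genes tested. It was also 0.12 over the 745 genes whose mean lay above the members' median level of 10.55. These genes include the brighter members and had a median level of 11.22, so they were not matched to the members in level. Whether level bears on the narrower spread of the members was not tested. These bright genes leaned lower, with 285 higher, 460 lower and a median difference of -0.05. Differences within 0.1 of zero, a change of less than 1.07-fold, were seen in 52 members (67.5%), in 42.8% of all genes and in 45.4% of the bright genes. The 95% confidence interval of the difference lay wholly within 0.5 of zero, a change of 1.41-fold, in 65 members (84.4%) and in 71.8% of all genes. For these 65 genes a larger change in either direction lies outside the interval, and for the other 12 it does not. The members share a pathway and are not independent of each other, and these shares are descriptions without a test.

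**Figure D1:**
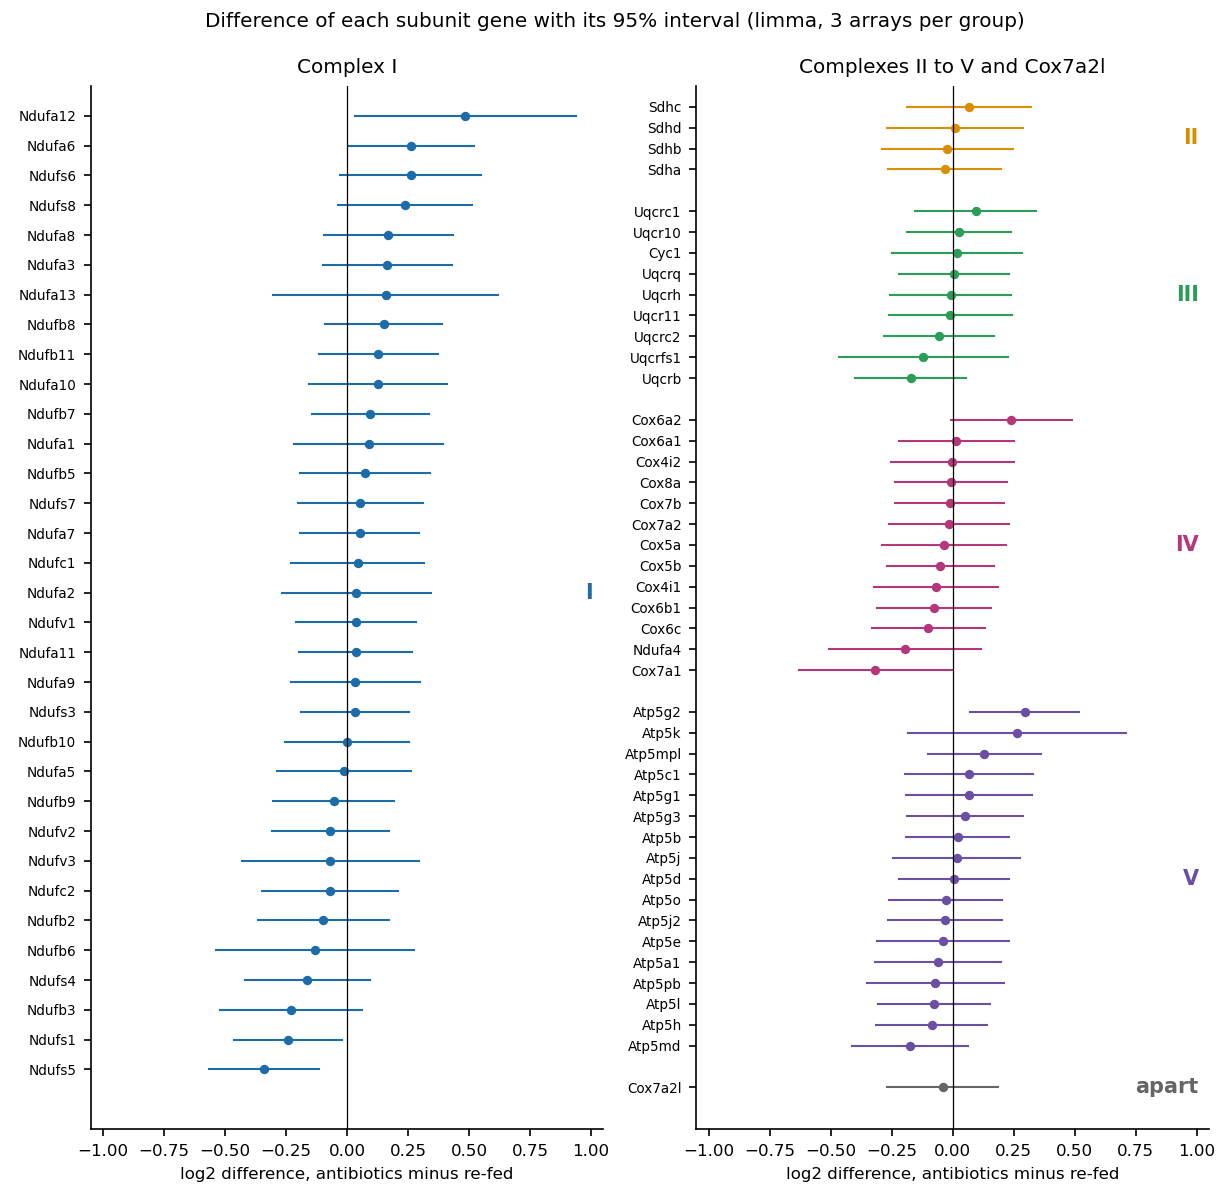
Difference between antibiotics and re-fed arrays (log2, horizontal axis) for each of the 77 members tested, by complex, with 95% confidence intervals from limma. The points lie on both sides of zero in every complex, from -0.34 for Ndufs5 to 0.48 for Ndufa12, and none passed the adjusted threshold.

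Complex I, the largest complex and the entry point of NADH, had 21 members higher and 12 lower and a median difference of 0.04, which was -0.14 on the deposited scale, where the median of all genes was -0.12. The matrix arm, where NADH is oxidised, had 10 of 15 higher, and the membrane arm, where protons are pumped, 11 of 18. Both extremes of the whole set were accessory subunits of this complex. Ndufs5, a small accessory subunit of the membrane arm, stood at 7.78, 7.89 and 7.95 on the re-fed arrays and at 7.57, 7.46 and 7.56 on the antibiotics arrays. Every antibiotics array lay below every re-fed array. The difference was -0.34 (SE 0.10, 1.27-fold lower, limma adjusted p = 0.245), and -0.40 within the common run.

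Ndufa12, an accessory subunit of the matrix arm, stood at 7.30, 8.07 and 8.14 on the re-fed arrays and at 8.35, 8.35 and 8.26 on the antibiotics arrays. The groups did not overlap, but re-fed replicate 1 lay far below the other re-fed arrays. The difference of 0.48 (SE 0.20, limma adjusted p = 0.369) became 0.21 without that array and 0.25 within the common run. The same array was the lowest for Ndufa6, an accessory subunit of the matrix arm that carries an LYR motif. Ndufa6 stood at 10.22, 10.50 and 10.53 re-fed and at 10.66, 10.65 and 10.73 with antibiotics. Its groups did not overlap either, and its difference of 0.26 (SE 0.11, limma adjusted p = 0.382) became 0.17 without re-fed replicate 1 and 0.14 within the common run.

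Among the subunits that carry electrons, the picture was mixed. Ndufs1, the large iron-sulphur subunit of the matrix arm, stood at 9.23, 9.31 and 9.40 re-fed and at 9.09, 9.04 and 9.08 with antibiotics. All antibiotics arrays were lower (difference -0.24, SE 0.10, limma adjusted p = 0.355). Ndufs8, another iron-sulphur subunit, differed in the other direction by 0.24 (SE 0.12, limma adjusted p = 0.458), and by 0.13 within the common run. Its re-fed arrays (10.40, 10.36 and 10.54) overlapped with the antibiotics arrays (10.70, 10.47 and 10.84). Ndufv1, which binds NADH and the flavin, stood at 10.42, 10.23 and 10.32 re-fed and at 10.39, 10.23 and 10.47 with antibiotics, a difference of 0.04 (SE 0.11) with overlap.

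The 6 core subunits as a group had 4 higher and 2 lower, and the 27 accessory subunits 17 and 10. Ndufs6, a zinc-binding accessory subunit, stood at 8.65, 8.83 and 8.96 re-fed and at 9.02, 8.93 and 9.27 with antibiotics. Its groups overlapped, and the difference was 0.26 (SE 0.13, limma adjusted p = 0.441) over 6 arrays and 0.08 within the common run. Ndufs4, an accessory subunit whose loss is used to model Leigh syndrome in mice, was lower on every antibiotics array (difference -0.16, SE 0.11, limma adjusted p = 0.580, and -0.24 within the common run). Ndufs7, an iron-sulphur subunit and the complex I member with the highest mean of the probe sets (11.76), stood at 11.87, 11.60 and 11.72 re-fed and at 11.77, 11.69 and 11.89 with antibiotics. Its groups overlapped, with a difference of 0.06 (SE 0.11).

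**Figure D2:**
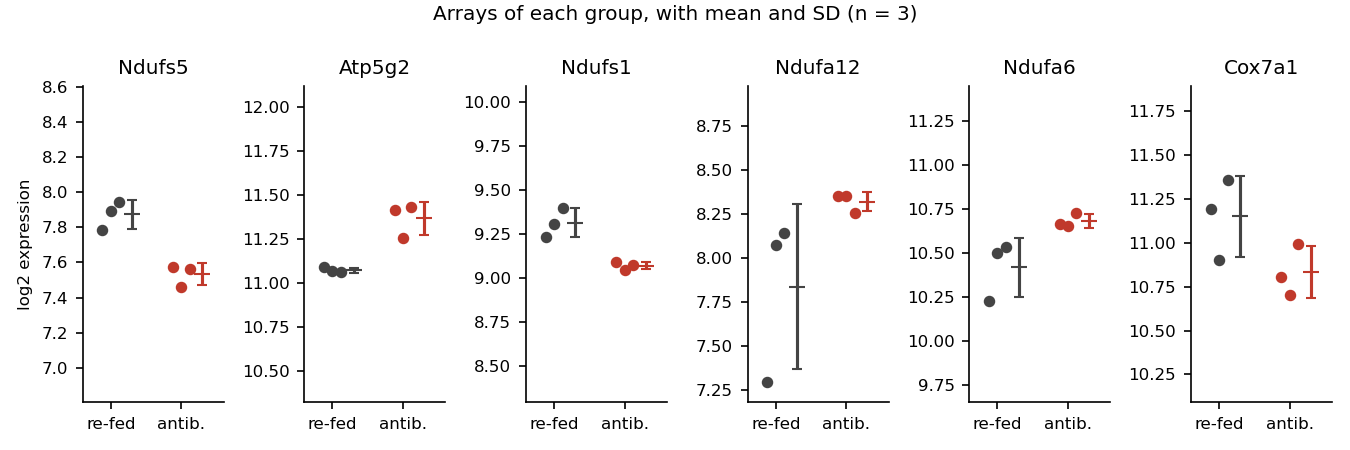
Log2 expression on each array (points) with the mean and SD of each group (bars, n = 3; antib., antibiotics) for the 6 members with an unadjusted p under 0.05, each on its own vertical axis of equal span. The groups do not overlap for Ndufs5, Atp5g2, Ndufs1, Ndufa12 and Ndufa6, and re-fed replicate 1 stands apart at 7.30 for Ndufa12.

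Complex II, which also works in the tricarboxylic acid cycle, was the complex with the narrowest range, with differences from -0.03 to 0.07 in its 4 subunits. Sdha, the flavin-bearing catalytic subunit, stood at 11.37, 11.21 and 11.36 re-fed and at 11.22, 11.24 and 11.38 with antibiotics. Sdhb, the iron-sulphur subunit, stood at 10.47, 10.26 and 10.52 re-fed and at 10.50, 10.23 and 10.44 with antibiotics. Their differences were -0.03 (SE 0.10) and -0.02 (SE 0.12), and the groups overlapped in both. Sdhc, a membrane anchor, stood at 10.64, 10.61 and 10.69 re-fed and at 10.76, 10.53 and 10.85 with antibiotics, an overlapping difference of 0.07 (SE 0.11, limma adjusted p = 0.846) that was -5.5e-03 within the common run. All 4 intervals lay within 0.5 of zero.

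Complex III had 4 members higher and 5 lower, a median of -0.01, and all 9 intervals within 0.5 of zero. Uqcrb, a small subunit that takes part in ubiquinone binding, stood at 11.83, 11.95 and 12.03 re-fed and at 11.79, 11.74 and 11.77 with antibiotics. The groups were apart by a narrow gap, with a difference of -0.17 (SE 0.10, limma adjusted p = 0.509), and -0.23 within the common run. The other probe sets of Uqcrb differed by less, -0.09 and -0.13. Uqcrfs1, the Rieske iron-sulphur protein, ranged from 8.99 to 9.18 re-fed (9.18, 8.99 and 9.17) and more widely with antibiotics (8.96, 8.71 and 9.32). Its difference was -0.12 (SE 0.15), with overlap, and turned on single arrays: it was -0.28 without antibiotics replicate 3, 0.02 without antibiotics replicate 2 and -0.25 within the common run.

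Cyc1, cytochrome c1, stood at 10.59, 10.70 and 10.70 re-fed and at 10.70, 10.49 and 10.86 with antibiotics. Uqcrc1, a core protein, stood at 10.83, 10.74 and 10.90 re-fed and at 10.92, 10.78 and 11.05 with antibiotics. Uqcrc2, the other core protein and the complex III member with the highest mean (11.99), stood at 12.08, 11.92 and 12.05 re-fed and at 11.98, 11.91 and 12.00 with antibiotics. All of them overlapped between the groups, with differences of 0.02 (SE 0.12), 0.10 (SE 0.11) and -0.06 (SE 0.10). Within the common run Cyc1 lay at -0.11 and Uqcrc1 at 0.03.

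Complex IV had the most one-sided count, 2 members higher and 11 lower, with a median difference of -0.04. The 745 bright genes also leaned lower, with 285 higher, 460 lower and a median of -0.05. The complex IV count was not kept within the common run, where 6 were higher and 7 lower. Of the 10 ubiquitous or single-gene subunits, 9 were lower over 6 arrays, with differences no larger than 0.20 in size. Ndufa4, named for complex I but placed in complex IV, stood at 8.60, 8.40 and 8.53 re-fed and at 8.37, 8.04 and 8.53 with antibiotics. It overlapped between the groups with a difference of -0.20 (SE 0.14, limma adjusted p = 0.582), which was -0.26 within the common run and -0.06 without antibiotics replicate 2. Its paralog Ndufa4l2, described elsewhere as induced by hypoxia, had a mean below the floor, with values of 5.62, 5.60 and 5.75 re-fed and 5.76, 5.88 and 5.67 with antibiotics.

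The structural subunits of complex IV that every tissue uses were nearly level. Cox4i1 stood at 11.06, 10.80 and 10.92 re-fed and at 10.98, 10.77 and 10.82 with antibiotics, a difference of -0.07 (SE 0.11) and 0.01 within the common run. Cox5b stood at 11.82, 11.76 and 11.90 re-fed and at 11.74, 11.78 and 11.81 with antibiotics, a difference of -0.05 (SE 0.10). The groups overlapped in both of these genes. Cox6c, whose mean of 12.94 was the highest of complex IV, stood at 12.99, 12.90 and 13.09 re-fed and at 12.90, 12.82 and 12.96 with antibiotics. Cox6b1, on the intermembrane-space side, stood at 11.80, 11.88 and 11.99 re-fed and at 11.87, 11.85 and 11.72 with antibiotics. Both overlapped, with differences of -0.10 (SE 0.10) and -0.08 (SE 0.10).

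Several complex IV subunits exist as a widespread and a tissue-restricted isoform, and the largest differences of the complex were in restricted ones, Cox7a1 and Cox6a2. Cox7a1, the heart and skeletal muscle isoform, stood at 11.19, 10.90 and 11.36 re-fed and at 10.80, 10.70 and 10.99 with antibiotics. The groups overlapped, and the difference of -0.32 (SE 0.14, limma adjusted p = 0.387) was -0.38 within the common run and -0.21 without re-fed replicate 3. Its widespread counterpart Cox7a2 stood at 11.03, 11.05 and 11.22 re-fed and at 11.21, 11.05 and 11.00 with antibiotics, overlapping with a difference of -0.01 (SE 0.11). The muscle marker Ckm had a mean of 6.27, near the floor, and Des lay below it at 5.75. The 7 tested markers of stroma, endothelium and muscle had a median difference of 0.14, with 6 higher and 1 lower, opposite in sign to that of Cox7a1. Their part in the level of Cox7a1 was not tested.

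Cox6a2, the muscle isoform of Cox6a1, stood at 6.81, 6.56 and 6.63 re-fed and at 6.94, 6.98 and 6.80 with antibiotics. Antibiotics replicate 3 lay just inside the re-fed range, and the difference was 0.24 (SE 0.11, limma adjusted p = 0.410), and 0.36 within the common run. Cox6a1 stood at 11.59, 11.44 and 11.62 re-fed and at 11.63, 11.59 and 11.47 with antibiotics, a difference of 0.02 (SE 0.10) with overlap, and 0.08 within the common run. Cox4i2, the isoform known from lung, stood at 6.39, 6.09 and 6.27 re-fed and at 6.25, 6.17 and 6.32 with antibiotics, a difference of -9.4e-04 (SE 0.11). Cox8a, the widespread isoform, stood at 12.02, 11.80 and 11.92 re-fed and at 11.89, 11.94 and 11.88 with antibiotics. Cox8a overlapped with a difference of -0.01 (SE 0.10), and 0.06 within the common run. The muscle isoform Cox8b was below the floor on every array, at 5.48, 5.34 and 5.44 re-fed and 5.65, 5.41 and 5.42 with antibiotics. The testis-type isoforms Cox6b2, Cox7b2 and Cox8c were dim as well, with unfiltered differences of -0.13 (SE 0.12), -0.10 (SE 0.13) and 0.19 (SE 0.15).

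Complex V had 9 members higher and 8 lower. Its catalytic head and central stalk were level: the 5 genes lay between -0.06 and 0.07. Atp5a1 stood at 12.26, 11.93 and 12.06 re-fed and at 12.08, 11.96 and 12.03 with antibiotics. Atp5b, which holds the catalytic sites, stood at 12.88, 12.82 and 12.88 re-fed and at 12.88, 12.86 and 12.92 with antibiotics. Differences were -0.06 (SE 0.11) and 0.02 (SE 0.09), the groups overlapped, and Atp5a1 lay at 0.03 within the common run. Atp5d, the delta subunit and the member with the highest mean of all (13.12), stood at 13.11, 13.09 and 13.16 re-fed and at 13.09, 13.05 and 13.22 with antibiotics, an overlapping difference of 4.6e-03 (SE 0.10), and -0.05 within the common run.

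The c-ring, the rotor through which protons pass, is encoded by Atp5g1, Atp5g2 and Atp5g3, whose products differ in the import sequence and not in the mature protein. Atp5g2 stood at 11.09, 11.07 and 11.06 re-fed and at 11.41, 11.26 and 11.43 with antibiotics. Every antibiotics array lay above every re-fed array, and the re-fed arrays differed little among themselves (SD 0.014). The difference was 0.29 (SE 0.10, 1.23-fold higher, limma adjusted p = 0.289), 0.27 within the common run, and 0.29, 0.29 and 0.34 in its 3 probe sets. Atp5g1 stood at 11.64, 11.71 and 11.66 re-fed and at 11.85, 11.54 and 11.83 with antibiotics. Atp5g3 stood at 11.69, 11.51 and 11.62 re-fed and at 11.73, 11.54 and 11.69 with antibiotics. Both overlapped, with differences of 0.07 (SE 0.12) and 0.05 (SE 0.11), and Atp5g1 lay at 4.6e-03 within the common run. Whether Atp5g2 differed from them was not tested. Subunit genes of this kind can have near-identical processed copies, and probe sequences were not used here, so signal shared with such copies was not tested.

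The other 5 membrane subunits of complex V were more scattered, with a median size of 0.13. Atp5md, a small subunit linked to dimers of the synthase, stood at 11.68, 11.85 and 11.94 re-fed and at 11.65, 11.63 and 11.66 with antibiotics. The groups were apart by a narrow gap, with a difference of -0.18 (SE 0.11, limma adjusted p = 0.521), and -0.26 within the common run. The other probe sets of Atp5md differed by less, -0.03 and -0.07. Atp5k, the e subunit, stood at 8.71, 8.06 and 8.21 re-fed and at 8.56, 8.29 and 8.93 with antibiotics, so that the groups overlapped widely. Its difference of 0.26 (SE 0.20) ranged from 0.10 to 0.45 as single arrays were left out. Atp5mpl, a small proteolipid, stood at 10.84, 10.66 and 10.86 re-fed and at 10.97, 10.86 and 10.92 with antibiotics, with a difference of 0.13 (SE 0.10) and re-fed replicate 3 reaching into the antibiotics range. Atp5h, of the peripheral stalk, stood at 11.10, 11.16 and 11.22 re-fed and at 11.06, 10.99 and 11.16 with antibiotics, an overlapping difference of -0.09 (SE 0.10), and -0.16 within the common run. The 4 genes of the peripheral stalk as a group lay between -0.09 and 0.02 over 6 arrays.

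**Figure D3:**
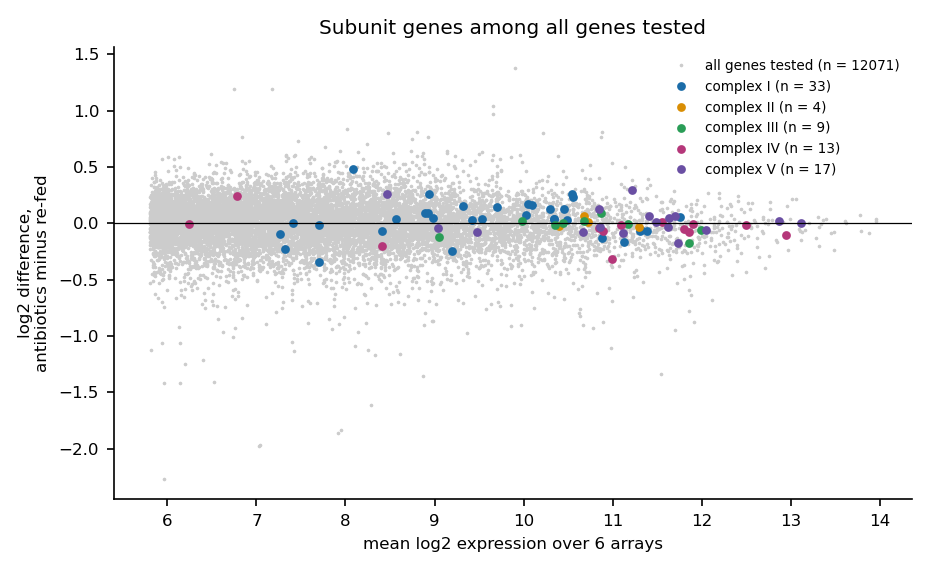
Difference between antibiotics and re-fed arrays (log2, vertical axis) against the mean log2 level over 6 arrays (horizontal axis), for all 12071 genes tested and, in colour, the members of each complex. The members lie mostly at high levels, with a median of 10.55, and close to zero difference.

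In place of a difference between the groups, the members showed a difference between arrays that cut across them. Taking each gene's deviation from its own mean over 6 arrays, the members' median was 0.02, -0.07 and 0.04 on re-fed replicates 1 to 3 and 0.04, -0.09 and 0.04 on antibiotics replicates 1 to 3. Replicate 2 of each group was low, while the medians of all genes tested stayed between -0.02 and 0.01. On re-fed replicate 2, 63 of the 77 members (81.8%) lay below their mean, where 52.1% of all genes did. On antibiotics replicate 2, 62 members (80.5%) did, against 48.2% of all genes.

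The low arrays were low in every complex. For 39 members (50.6%) replicate 2 was the lowest array in both groups, against 10.2% of all genes tested. These were 15 of 33 subunits in complex I, 3 of 4 in complex II, 5 of 9 in complex III, 7 of 13 in complex IV and 9 of 17 in complex V. The spread of the array medians within groups (pooled SD 0.07) was larger than the members' median difference between groups. Both arrays belong to the common normalisation run and the labels give the shared number no meaning, so what these arrays have in common was not tested. Leaving out re-fed replicate 2 moved the members' median difference to -0.04, and leaving out antibiotics replicate 2 moved it to 0.04.

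Other lists were set beside the members on the same arrays, some of them added after this pattern had been seen. Replicate 2 was also the lowest array of each group in the median of 13 tricarboxylic acid cycle genes, of 19 electron carrier and coenzyme Q genes, of 5 antioxidant genes and of 37 proteasome subunits. It was not the lowest of the re-fed arrays for 77 mitochondrial ribosomal proteins. Their medians were -0.10, -1.2e-03 and 0.03 re-fed and 0.03, -0.08 and 0.12 with antibiotics. Nor was it the lowest re-fed array for assembly factors, pyruvate entry, biogenesis regulators or carriers and import components, described below. The medians of these lists on re-fed replicate 2 were 0.02, 0.04, 0.04 and 0.02. Cytosolic ribosomal proteins (52 genes) had medians of -0.03, -0.01 and -0.25 re-fed and 0.13, -0.04 and 0.24 with antibiotics. Among markers of absorptive colonocytes, the medians were 0.14, 0.03 and 0.18 re-fed and -0.17, -0.06 and -0.01 with antibiotics, without overlap between the groups.

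**Figure D4:**
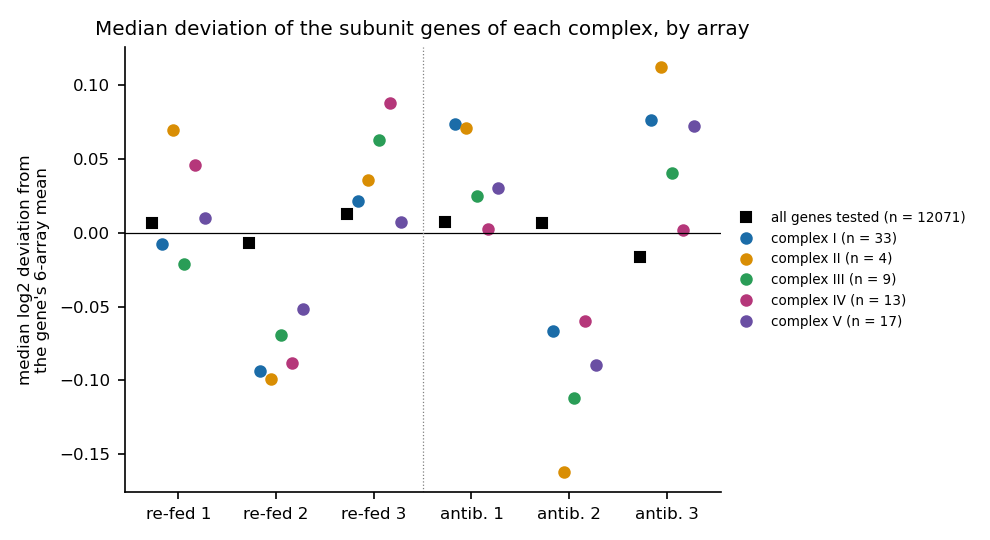
Median deviation of the members of each complex from their own 6-array means (log2, vertical axis) on each of the 6 arrays (antib., antibiotics), with the same for all genes tested as black squares. Replicate 2 of the re-fed group and replicate 2 of the antibiotics group lie lowest of their group in every complex, down to -0.16 in complex II, while all genes stay within 0.02 of zero.

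Markers of the epithelial cell types were set beside these levels. Of 7 absorptive colonocyte markers 5 were lower with antibiotics (median -0.29), among them Slc9a3 (difference -0.63, limma adjusted p = 0.170), and all 4 markers of proliferating cells were higher (median 0.21, and -0.07 within the common run, with 2 higher and 2 lower). All 5 goblet cell markers were lower (median -0.13, and -0.25 within the common run). None of the genes in these lists passed the threshold, and differences in cell make-up were not tested. The 8 pan-epithelial markers had a median of -0.05. Their part in the subunit values was not tested.

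Genes that serve the complexes were described by the same fit. None passed the adjusted threshold in any list. Assembly factors, which build the complexes without being part of them, had 16 higher and 23 lower of 39 (median -0.04), and 10 higher and 29 lower (median -0.10) within the common run. At an unadjusted p under 0.05 there were 7 (17.9%, against 12.6% of all genes). Lyrm7, a chaperone of the Rieske protein of complex III, stood at 5.82, 6.07 and 6.40 re-fed and at 5.69, 5.40 and 5.65 with antibiotics. All antibiotics arrays were lower and lay below the floor of 5.81. The gene was tested because its re-fed arrays brought its mean to 5.84. The difference of -0.51 (SE 0.16, limma adjusted p = 0.256), and -0.69 within the common run, thus sets a dim signal against background. Cox11 and Cox19, which take part in copper delivery to complex IV, were also lower on every antibiotics array, with differences of -0.28 (SE 0.10) and -0.26 (SE 0.10), the latter -0.31 within the common run.

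Electron carriers and coenzyme Q synthesis leaned lower, with 5 higher and 14 lower of 19 and a median of -0.12, which was also -0.12 within the common run. Etfdh, which feeds electrons from fatty acid oxidation to ubiquinone, stood at 9.69, 9.55 and 9.72 re-fed and at 9.37, 9.37 and 9.45 with antibiotics. Coq3, a methyltransferase of ubiquinone synthesis, stood at 7.91, 7.60 and 7.86 re-fed and at 7.49, 7.55 and 7.37 with antibiotics. Both were lower on every antibiotics array, by differences of -0.26 (SE 0.10) and -0.32 (SE 0.12), and Coq3 lay at -0.21 within the common run. Coq8a, an atypical kinase of the same pathway, lay in the other direction at 7.27, 7.61 and 7.38 re-fed and 7.81, 7.84 and 7.98 with antibiotics (difference 0.45, SE 0.12, limma adjusted p = 0.202, and 0.33 within the common run). Cycs, cytochrome c itself, was lower on every antibiotics array by a narrow margin (difference -0.12, SE 0.10).

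Upstream of the chain, the tricarboxylic acid cycle had 4 higher and 9 lower of 13 (median -0.08, and -0.15 within the common run), with Idh3a at -0.27 (SE 0.14), Dld at -0.23 (SE 0.12) and Suclg1 at -0.19 (SE 0.11). Idh3a lay at -0.33 and Dld at -0.37 within the common run. Pyruvate entry had 4 higher and 9 lower of 13 (median -0.10). Pdk4, a kinase that shuts pyruvate dehydrogenase and is known to respond to fasting, stood at 8.04, 8.99 and 8.92 re-fed and at 6.92, 8.84 and 6.94 with antibiotics. Antibiotics replicate 2 lay with the re-fed arrays, and the difference was -1.08 (SE 0.47, limma adjusted p = 0.384). Pdk3 and Pdk1, kinases of the same enzyme, differed by -0.34 (SE 0.11) and 0.27 (SE 0.12), and the phosphatase Pdp2 by -0.45 (SE 0.18). Pdk1 lay at 0.39 and Pdp2 at -0.69 within the common run.

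Regulators of mitochondrial biogenesis had 10 higher and 9 lower of 19 and a median of 0.02, which was -0.04 within the common run. The coactivators Ppargc1a and Ppargc1b differed by 0.07 (SE 0.14) and -0.09 (SE 0.10), and their partner Esrra by 0.13 (SE 0.10). Nrf1, whose product binds the motif described above, differed by -0.04 (SE 0.11), and Gabpa, the DNA-binding part of GABP, by -0.02 (SE 0.11). Within the common run these were 0.05 and -0.07. Gabpb1, the other part of GABP, stood at 7.76, 7.64 and 7.72 re-fed and at 7.16, 7.47 and 6.96 with antibiotics, lower on every antibiotics array (difference -0.51, SE 0.14, limma adjusted p = 0.203, and -0.37 within the common run). Tfam, which packages mitochondrial DNA, lay close to the floor at 5.83, 6.35 and 6.30 re-fed and 5.66, 5.84 and 5.84 with antibiotics. Its groups overlapped (difference -0.38, SE 0.15, and -0.58 within the common run). The antibiotics mean of 5.78 lay below the floor of 5.81 and the re-fed mean of 6.16 above it. The size of this difference is therefore uncertain. Myc stood at 7.52, 7.26 and 6.78 re-fed and at 7.54, 7.12 and 8.10 with antibiotics. Antibiotics replicate 3 was the highest array by far, and the difference was 0.40 (SE 0.25) over 6 arrays and 0.31 within the common run, which leaves that array out.

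The 18 carriers, porins and import components had 9 higher and 9 lower, and 6 higher and 12 lower (median -0.09) within the common run. Hspd1 lay at 0.33 (SE 0.15), and at 0.09 within the common run, Vdac1 at -0.18 (SE 0.09) and Vdac2 at -0.18 (SE 0.11). The 5 antioxidant genes were all higher (median 0.10), with Sod2 at 0.16 (SE 0.10), Txn2 at 0.16 (SE 0.13) and Gpx4 at 0.10 (SE 0.12). Within the common run the median was -0.01, and these 3 genes lay at 0.11, -0.02 and 0.17.

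**Figure D5:**
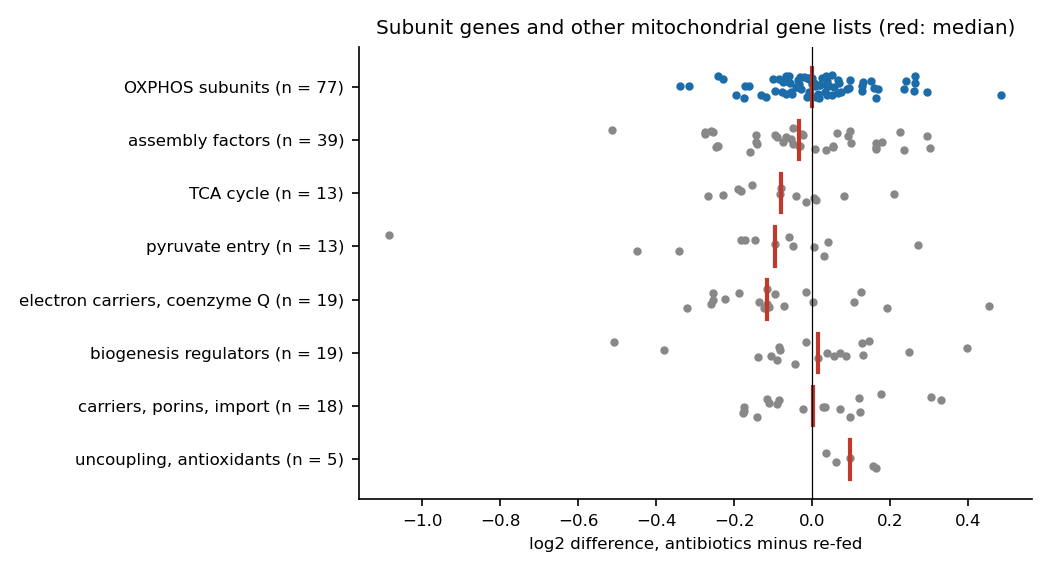
Differences between antibiotics and re-fed arrays (log2) for the 77 subunit genes tested and for the pathway lists, 1 point per gene with each list's median as a red bar. The median of the subunits lies at zero difference (-8.5e-05), and those of the other lists lie between -0.12 and 0.10.

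Probe sets and scaling bear on these values. The 16 members with several probe sets had all of them above the floor, and their differences disagreed by 0.00064 to 0.29, the widest for Cox7a2l, with opposite signs in Atp5pb alone. On the deposited scale, without a further normalisation, the median of all genes was -0.12 and that of the members -0.15, and 7 members were higher and 70 lower. Counted from the all-gene median of that scale, 28 members lay above and 49 below. With arrays weighted by their noise, 3 members passed the adjusted threshold, Ndufs5 (-0.34, limma adjusted p = 0.0281), Atp5g2 (0.32, adjusted p = 0.0312) and Cox6a2 (0.32, adjusted p = 0.0402), where 9.68% of all genes did. Those weights ranged from 0.33 to 3.82 and were estimated from the same 6 arrays.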

How the data were processed

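The deposited table holds log2 expression of 35557 probe sets on 6 Affymetrix arrays. The authors made it with RMA, per the submitters' processing notes, and no version is given. The array medians were unequal, so the deposited log2 values were quantile normalised over the 23410 probe sets with a gene. Of all probe sets 21789 named 1 gene, 1621 several and 12147 were unnamed here. No build is named for them, so none of their coordinates are printed.

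Genes whose mean was below 5.81, the 40th percentile, were not tested. The groups, taken from the sample titles, were compared in limma 3.58.1 (R 4.3.3, lmFit and eBayes, two-sided), with Benjamini-Hochberg adjustment over 12071 genes and a threshold of 0.05. The scripts were tested on simulated data.

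Values on all arrays are given for the members with the smallest unadjusted p (up to 5 in complexes I, IV and V, up to 3 in II and III), for the highest mean of each complex, and for a list of subunits and isoforms whatever their values. Of each other pathway list, up to 3 genes with the smallest unadjusted p and a set of regulators are named. Ndufs4, Ndufs8, Pdk4, Slc9a3, Ckm and Des were singled out after their values were seen. The members and lists were chosen with earlier results of these data known. The number of arrays limits the precision. Alternatives were the deposited scale, the common run, array weights, a replicate block, other dim filters, the mean of probe sets, structural subunits alone and each array left out.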

Additional observations from a re-analysis of the deposited data

How the results depend on the processing

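The 0 members past the adjusted threshold remained 0 under every alternative run except array weights, which gave 3. The median difference over members, -8.5e-05 over 6 arrays, was -0.15 on the deposited scale, where complexes I to V had medians of -0.14, -0.16, -0.16, -0.17 and -0.12. Members higher and lower numbered 7 and 70 on the deposited scale. On the deposited scale within the common run 20 members were higher, and the median of complex I was -0.045. With array weights 25 members were lower. The count at an unadjusted p under 0.05, added after the data had been seen, was 6, and it was 0 on the deposited scale, 15 with array weights and 1 without antibiotics replicate 1, where 3.85%, 29.3% and 8.62% of all genes passed it.

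With each array left out in turn, 0 members passed, 29 to 51 were higher, 26 to 48 lower and 1 to 7 had an unadjusted p under 0.05. The members' median ran from -0.04 to 0.04, and the medians ran from 0.01 to 0.08 in complex I, -0.06 to 0.08 in complex II, -0.07 to 0.03 in complex III, -0.08 to -0.01 in complex IV and -0.01 to 0.03 in complex V. With the replicate number as a block, 0 members passed (smallest adjusted p 0.398, Ndufs5, limma) and 4 had an unadjusted p under 0.05, and no call changed. Same-numbered arrays of the groups correlated at 0.02, -0.03 and -0.22 over all genes in their deviations from the group means. Over the members these correlations were -0.05, 0.29 and -0.31. Differently numbered arrays ran from -0.38 (re-fed 1 with antibiotics 2) to 0.35 (re-fed 3 with antibiotics 2) over the members. Over all genes they ran from -0.175 to 0.24 in the same pairs. The labels give the shared number no meaning, and the numbers were not taken to pair the samples. Of 21 members whose difference exceeded its SE, 6 changed sign on the deposited scale and 2 on that scale within the common run, and 0 under the other alternatives run over these members. No named member changed sign where its difference exceeded its SE under both settings. The causes were not tested. Probe sets near the floor, such as Cox4i2 and Cox6a2, have the least signal over background.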
